A study of Mus musculus with 8 samples.

Results

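The inward rectifier potassium channel genes Kcnj3, Kcnj6, Kcnj9, Kcnj10 and Kcnj16 were compared in cerebellum between Inbred Long Sleep (ILS) and Inbred Short Sleep (ISS) mice. All probe sets whose only gene symbol in the platform annotation was one of these genes were taken, 16 of the 45137 probe sets apart from controls. These stood for 5 of 18193 genes with a symbol of their own. On 430A, the first of the paired Affymetrix chips, there were 10, and 430B held 6. Total RNA came from the cerebellum of 4 alcohol-naive males, ILS mice 48 and 51 and ISS mice 55 and 56, and each mouse was hybridised once to each array. All had been kept with free food and water for 14 days after a transfer between sites, and the labels give no age. Both strains are inbred from lines bred for how long mice stay on their backs after an ethanol dose, and no ethanol was given here.

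Inward rectifier channels pass potassium into the cell more readily than out of it, and so hold the membrane near the potassium equilibrium. The GIRK channels are the G protein-gated members. They open when receptors coupled to Gi/o proteins release G beta gamma, they slow neuronal firing, and ethanol can open them directly. Kcnj3 encodes GIRK1, Kcnj6 GIRK2 and Kcnj9 GIRK3, which assemble into mixed tetramers, and a pore mutation of Kcnj6 causes the weaver phenotype with loss of cerebellar granule cells. Kcnj10 encodes the main inward rectifier of astrocytes and Bergmann glia, which clears extracellular potassium, and Kcnj16 encodes a subunit that joins Kcnj10.

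Values below are MAS5 signals on a linear scale in arbitrary units, and a positive log2 fold change means a higher signal in ILS. A probe set was tested where its mean log2 signal reached the median of its chip (a signal of 218 on 430A and 231 on 430B), and was called at a limma adjusted p under 0.05 over all tested probe sets of the chip. Of the 16 probe sets, 8 were tested, 3 on 430A and 5 on 430B. They stood for 4 genes, since all probe sets of Kcnj6 fell below the filter. The files hold no detection calls, so a low value cannot be told apart from an absent transcript. Replicates were separate mice. The variance behind each limma p-value draws more on the other probe sets of the chip than on the mice at that probe set. The number of mice limits the precision. In whole cerebellum, fewer cells of a type and less RNA per cell cannot be told apart.

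Kcnj9 was the 1 gene of the 5 called different between strains, lower in ILS at a probe set on 430A, while its probe set on 430B was higher in ILS and not called. On 430A, 1 of the 3 tested Kcnj probe sets was called, against 2.93% of all tested probe sets. On 430B, 0 of the 5 were called, against 0.480% of all tested probe sets, and 1 of the 5 (Kcnj9) had an unadjusted limma p under 0.05, against 9.02% of all tested probe sets there and 21.8% on 430A. With no filter on dim probe sets, limma called none of the 16, against 0.601% of probe sets on 430A and 0.0577% on 430B, while 2 of 10 on 430A and 0 of 6 on 430B had an unadjusted p under 0.05, against 20.1% and 7.47%. The strains did not overlap at 1 of 3 tested Kcnj probe sets on 430A and at 3 of 5 on 430B, against 54.3% and 38.9% of all tested probe sets. The median log2 fold change of the tested Kcnj probe sets was -0.02 on 430A and 0.08 on 430B, against -0.01 and -0.001 over all tested probe sets.

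**Figure D1:**
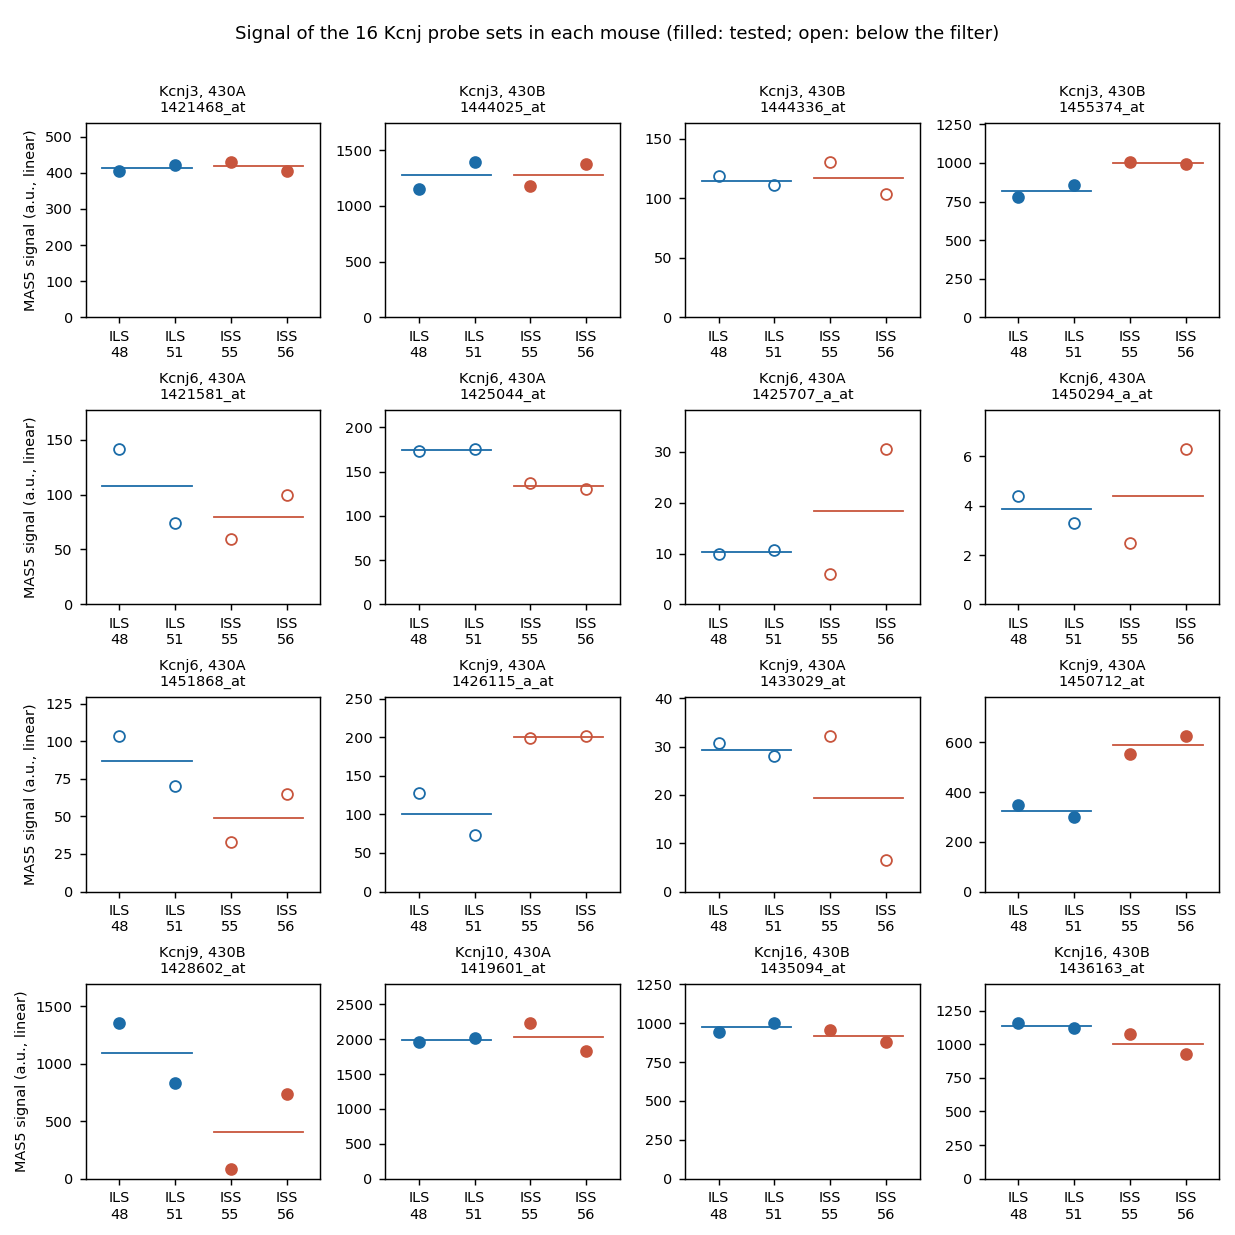
MAS5 signal (linear scale, arbitrary units) of the 16 Kcnj probe sets in each mouse, ILS in blue and ISS in red, with lines at the strain means. Filled points are tested probe sets and open points lie below the filter. At Kcnj9 1450712_at both ILS mice lie below both ISS mice, and at Kcnj9 1428602_at ISS mouse 55 lies far below the other 3.

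Among the GIRK subunits, Kcnj9 had 4 probe sets. At 1450712_at, which was designed from the RefSeq transcript of the gene, the signal was 348.1 in ILS mouse 48 and 298.1 in ILS mouse 51, and 555.0 in ISS mouse 55 and 626.3 in ISS mouse 56. Both ISS mice were higher than both ILS mice, at 590.6 ± 50.5 against 323.1 ± 35.4 (SD, n = 2). The log2 fold change was -0.87 ± 0.16 (SE), 1.83-fold higher in ISS, with a 95% interval of -1.24 to -0.51 (limma adjusted p = 0.0334). The call ended without ILS mouse 48 (-0.98, limma adjusted p = 0.0581), ILS mouse 51 (-0.76, 0.0668) or ISS mouse 56 (-0.79, 0.104), and with no filter (limma adjusted p = 0.0634). Over 14 alternatives that tested this probe set, the log2 fold change ran from -1.03 to -0.76, below 0 in each, and the limma adjusted p from 0.00289 to 0.104.

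A second Kcnj9 probe set on 430A, 1426115_a_at, differed in the same direction below the filter. Its signals were 128.1 and 73.3 in ILS mice 48 and 51 and 199.1 and 201.7 in ISS mice 55 and 56. Again both ISS mice were higher, but all 4 values were under the medians of the arrays concerned. With no filter its log2 fold change was -1.05, with a 95% interval of -1.79 to -0.31 (limma unadjusted p = 0.0123, adjusted p = 0.152). The third, 1433029_at, stood at 30.7 and 28.1 in ILS and at 32.2 and 6.5 in ISS, so that the strains overlapped at low signal.

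On 430B the Kcnj9 probe set 1428602_at pointed the other way. Its signals were 1352 in ILS mouse 48, 828.3 in ILS mouse 51, 84.2 in ISS mouse 55 and 734.0 in ISS mouse 56. The strains did not overlap, yet the ISS mice lay far apart, with mouse 56 close to ILS mouse 51 and mouse 55 below the median of its array. ILS exceeded ISS by 2.09 ± 0.77 (SE) on the log2 scale, with a 95% interval of 0.35 to 3.83, and was not called (limma adjusted p = 0.426). The interval spanned 0 with no filter (-0.028 to 4.208), without the intensity trend of limma (-0.176 to 4.355) and with robust eBayes (-0.463 to 4.643). Without ISS mouse 55 the log2 fold change was 0.53, and without ISS mouse 56 it was 3.65. Each of these fits rests on a lone ISS array, assumed to vary like the others, although the ISS mice stood at 84.2 and 734.0. 

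The difference between the opposed Kcnj9 probe sets was taken within each mouse. The log2 signal at 1428602_at minus that at 1450712_at was 1.96 and 1.47 in ILS mice 48 and 51, and -2.72 and 0.23 in ISS mice 55 and 56. The strain effects at these probe sets differed by 2.96 on the log2 scale (exact permutation over mice, two-sided, p = 0.333, adjusted p = 0.555 over 5 pairs of probe sets). With 2 mice against 2, 0.333 is the smallest p the design allows. Of the 16 probe sets, the annotation gives a RefSeq transcript of the gene as the source of 2, Kcnj3 1421468_at and Kcnj9 1450712_at. Which Kcnj9 transcript 1428602_at reads was not tested.

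**Figure D2:**
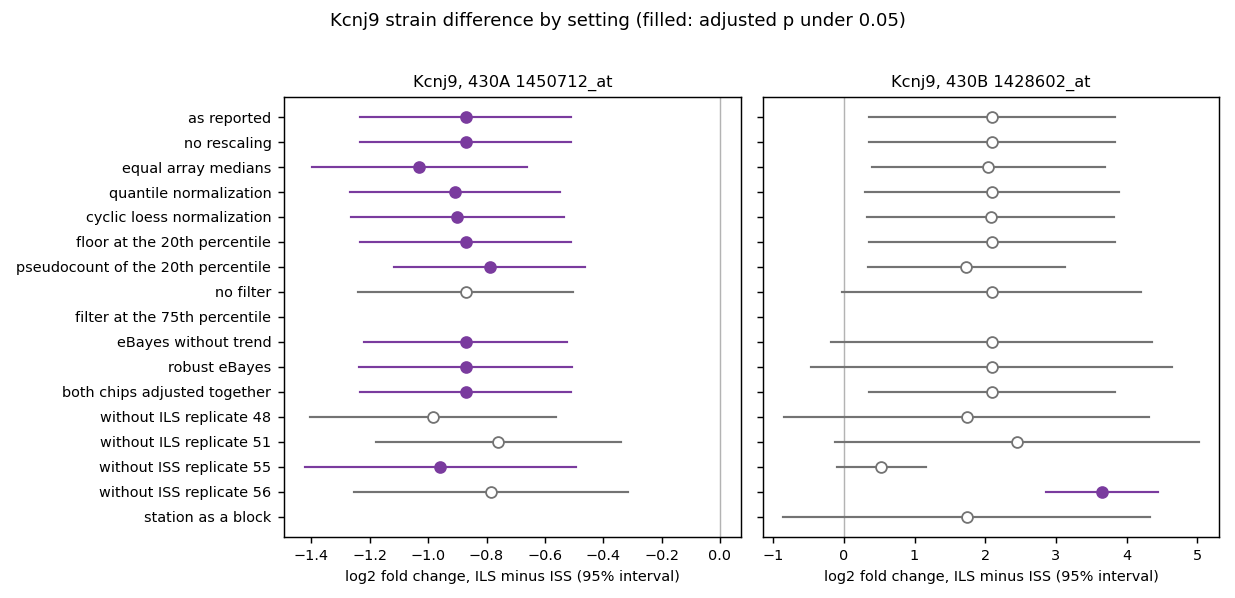
Log2 fold change of Kcnj9 (ILS minus ISS, with its 95% interval) under each processing setting, for 430A 1450712_at on the left and 430B 1428602_at on the right. Filled points passed an adjusted p of 0.05. The left values run from -1.03 to -0.76, and the right values from 0.53 without ISS replicate 55 to 3.65 without ISS replicate 56. Neither panel has a value at the 75th percentile filter, which neither probe set reached. The left panel has none for the station, which was confounded with strain on 430A.

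Kcnj3, whose protein needs other GIRK subunits to reach the membrane, was not called at any of its 3 tested probe sets. At 1421468_at on 430A the signal was 406.1 and 421.8 in ILS mice 48 and 51 and 430.9 and 406.2 in ISS mice 55 and 56. The strains overlapped, with a log2 fold change of -0.02 and a 95% interval of -0.35 to 0.32. At 1444025_at on 430B the signals were 1149 and 1396 in ILS and 1178 and 1371 in ISS, which put the strain difference at -0.01 (log2) with an interval of -0.40 to 0.39. The mice of each strain were further apart there than the strain means.

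The third tested Kcnj3 probe set, 1455374_at on 430B, was lower in both ILS mice, at 779.3 and 857.3 against 1008 and 993.1 in ISS. Its log2 fold change of -0.29 ± 0.18 (SE) did not pass (limma adjusted p = 0.694), and the interval ran from -0.69 to 0.10. A dim probe set, 1444336_at, stood at 118.8 and 111.3 in ILS and at 130.9 and 103.3 in ISS, and overlapped. The strain effects of the tested Kcnj3 probe sets differed by 0.28 and 0.29 on the log2 scale between 1455374_at and the other two (exact permutation over mice, p = 0.333 for each, adjusted p = 0.555), and by 0.01 between the other two (p = 1).

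Kcnj6 was read by 5 probe sets, all on 430A and all below the median of their arrays in every mouse. At 1425044_at the signal was 172.9 and 175.7 in ILS mice 48 and 51 and 137.0 and 130.8 in ISS mice 55 and 56, with both ILS mice higher. At 1451868_at it was 103.5 and 70.5 in ILS and 32.8 and 65.2 in ISS, again without overlap. With no filter their log2 fold changes were 0.38 (95% interval -0.15 to 0.91) and 0.88 (-0.18 to 1.95), and neither passed (limma adjusted p = 0.378 and 0.320). The median log2 fold change over all 430A probe sets with no filter was 0.115, against -0.011 over the tested ones. Dim probe sets of the chip thus leaned towards ILS as a whole.

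The other Kcnj6 probe sets overlapped between strains. The signals at 1421581_at were 141.6 and 74.0 in ILS and 59.9 and 99.6 in ISS. At 1425707_a_at and 1450294_a_at no value exceeded 30.6. Of the 5 Kcnj6 probe sets, the measured log2 differences ran from -0.40 to 0.88, and with no filter each 95% interval spanned 0.

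**Figure D3:**
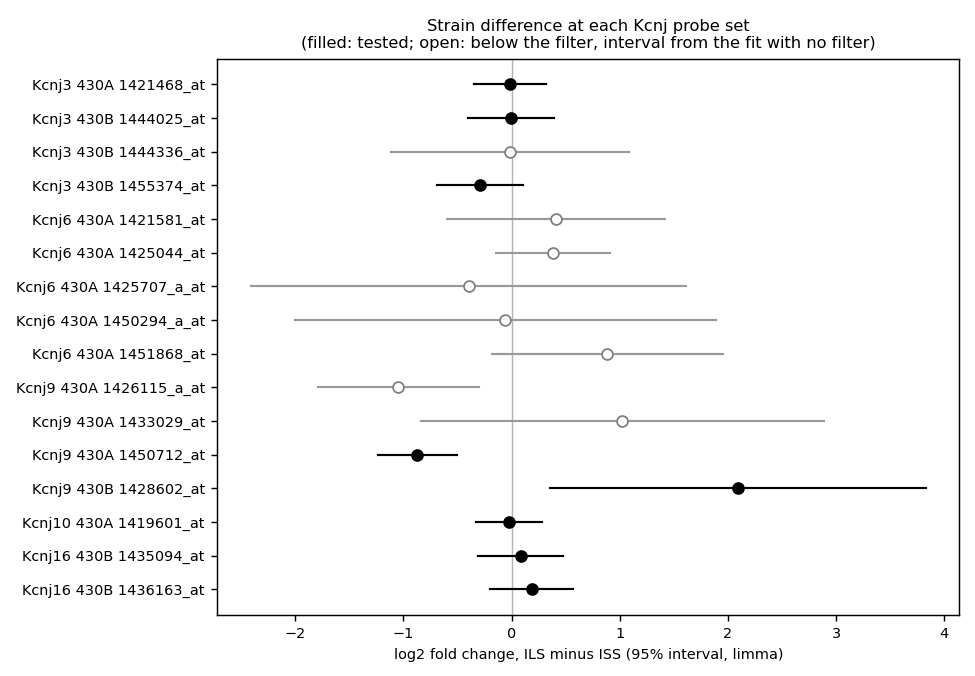
Log2 fold change (ILS minus ISS) at each of the 16 Kcnj probe sets with its 95% interval from limma. Filled points are tested probe sets and open points lie below the filter, with intervals from the fit with no filter. Kcnj10, Kcnj16 and the tested Kcnj3 probe sets lie between -0.29 and 0.19, while Kcnj9 lies at -0.87 on 430A and at 2.09 on 430B.

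The glial channel Kcnj10 was read by a single probe set, 1419601_at on 430A. Its signal was 1963 and 2018 in ILS mice 48 and 51 and 2232 and 1829 in ISS mice 55 and 56. The ISS mice lay on either side of the ILS mice. The mean was 1991 ± 39.0 for ILS and 2031 ± 285 for ISS (SD, n = 2). On the log2 scale the strains differed by -0.02 ± 0.13 (SE), which was not called (limma adjusted p = 0.942). The 95% interval ran from -0.33 to 0.28.

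Its partner Kcnj16 was read by both of its probe sets on 430B. At 1435094_at the signal was 945.0 and 1001 in ILS and 958.0 and 880.8 in ISS, and the strains overlapped. At 1436163_at it was 1157 and 1120 in ILS and 1076 and 929.1 in ISS, with both ILS mice higher. The log2 fold changes were 0.08 (95% interval -0.31 to 0.47) and 0.19 (-0.20 to 0.57), and neither was called (limma adjusted p = 0.932 and 0.828). They differed from each other by 0.10 on the log2 scale (exact permutation over mice, p = 0.667, adjusted p = 0.834).

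Kcnj9 and Kcnj10 are neighbours on chromosome 1, with 0 protein-coding genes between them in the RefSeq gene table. They are transcribed away from each other, with 11888 bases between their annotated starts. Their promoters are shown because the genes lie side by side and Kcnj9 was called while Kcnj10 was not. Each sequence, credited to RefSeq on GRCm38.p6, runs 5′ to 3′ on the strand of the gene from 250 bases before to 50 after the start, with GC boxes (GGGCGG, either strand) in capitals. The Kcnj9 promoter is at chr1:172329273-172329572 on the minus strand and the Kcnj10 promoter at chr1:172340960-172341259 on the plus strand.
Kcnj9: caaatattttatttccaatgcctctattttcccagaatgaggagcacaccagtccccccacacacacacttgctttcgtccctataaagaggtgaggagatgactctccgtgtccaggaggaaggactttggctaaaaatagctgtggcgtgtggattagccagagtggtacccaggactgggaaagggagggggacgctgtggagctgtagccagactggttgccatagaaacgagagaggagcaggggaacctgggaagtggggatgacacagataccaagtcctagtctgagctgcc
Kcnj10: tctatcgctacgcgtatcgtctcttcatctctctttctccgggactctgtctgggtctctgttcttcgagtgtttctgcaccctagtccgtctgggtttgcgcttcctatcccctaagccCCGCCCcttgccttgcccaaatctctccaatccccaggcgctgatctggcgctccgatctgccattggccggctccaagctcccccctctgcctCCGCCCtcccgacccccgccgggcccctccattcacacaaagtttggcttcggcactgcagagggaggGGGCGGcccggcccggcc

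The Kcnj9 window held 0 GC boxes, 5 CpG dinucleotides and 1 match to TATAAA on either strand. That of Kcnj10 held 3 GC boxes, 21 CpG dinucleotides and 0 matches to TATAAA. Over 32851 promoter windows of the same length, 35.7% held a GC box and 13.6% the TATA letters, and the median number of CpG dinucleotides was 7. These reference sequences are not those of ILS or ISS mice, and the matches describe letters only.

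Around the pair, the nearest tested genes did not pass. Igsf8, an immunoglobulin superfamily membrane protein next to Kcnj9, had a log2 fold change of -0.30 (limma adjusted p = 0.20). Pea15a, a death effector domain protein further out on the same side, stood at -0.44 and -0.20 at its probe sets (limma adjusted p = 0.0709 and 0.289). Pigm, an enzyme of GPI anchor synthesis next to Kcnj10, stood at -0.51 on 430B (limma adjusted p = 0.665), and Tagln2, an actin-binding protein further out, at 0.28 (limma adjusted p = 0.410). Both ISS mice were higher than both ILS mice at Igsf8, Pea15a and Pigm, and both ILS mice were higher at Tagln2. Over all tested probe sets, the strains did not overlap at 54.3% on 430A and at 38.9% on 430B, in either direction.

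Likeness of pattern was measured as the largest absolute difference over the 4 arrays of a chip, between log2 values each taken from its own mean. Around the brightest tested probe set of Kcnj9, 1428602_at, the nearest genes were Xkr4 (0.77), Foxp4 (0.98) and Ankrd11 (1.13), and 0 of 8470 compared probe sets came within 0.1. For 1450712_at, chosen after its values were seen, 10 of 10461 came within 0.1, and the nearest were Kcnh1 (0.009), a voltage-gated potassium channel, Ppp1r17 (0.036), which inhibits a phosphatase in Purkinje cells, and Smad4 (0.043), a mediator of TGF-beta signalling. Kcnh1 had a log2 fold change of -0.87 (limma adjusted p = 0.0540), Ppp1r17 one of -0.90 (limma adjusted p = 0.0225) and Smad4 one of -0.87 (limma adjusted p = 0.0263). Fold changes near that of Kcnj9 follow from the matching of patterns and are not a separate result.

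Flat patterns had many neighbours. For Kcnj10, 394 of 10461 came within 0.1, the nearest being Pnrc1 (0.013), Lyplal1 (0.014) and Trabd (0.015). For Kcnj3 1444025_at it was 160 of 8470, led by Gpr135 (0.018), Mamdc4 (0.019) and Rsph14 (0.028), and for Kcnj16 1436163_at 255 of 8470, led by Cdca2 (0.013), Gpc5 (0.016) and Ipo9 (0.019).

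Genes that work with these channels were read at the brightest tested probe set of each gene. Counts at an unadjusted p under 0.05 below stand against the 21.8% of 430A and 9.02% of 430B. Of the other Kcnj channels, 1 gene was measured on 430A and 2 on 430B, and none was called by limma. Kcnj11, the pore of ATP-sensitive channels, was lower in both ILS mice on 430B, at 2634 and 2047 against 3237 and 3358 (log2 fold change -0.51, unadjusted p = 0.0108, adjusted p = 0.313). Kcnj12, a strong inward rectifier, was lower in both ILS mice on 430A, at 298.9 and 311.1 against 437.1 and 362.6 (-0.38, unadjusted p = 0.0486, adjusted p = 0.226). Kcnj13 stood at -0.01 (adjusted p = 0.991).

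Upstream of GIRK, receptors that couple to Gi/o had 5 measured genes on 430A, with 1 called higher in ILS, 0 called lower and a median log2 fold change of 0.50. Without a call, Htr1a and Htr1b (0.50 each) were higher in ILS, and Cnr1 (-0.52) and Gabbr1 (-0.15) lower. The called gene was the nociceptin receptor Oprl1, at 765.9 and 846.5 in ILS mice and 513.3 and 474.5 in ISS mice (0.71 ± 0.14, SE, limma adjusted p = 0.0402). A dimmer Oprl1 probe set was called too (1.02, limma adjusted p = 0.0388), and its remaining tested probe set was not (0.77, 0.0989). The first call ended without ILS mouse 48 (limma adjusted p = 0.0925), ILS mouse 51 (0.0849) or ISS mouse 56 (0.143), and the second without ILS mouse 48 (0.162) or ISS mouse 56 (0.0817). Both also ended with no filter and with the chips adjusted together (limma adjusted p = 0.0540 to 0.0785). The first ended too without the intensity trend (0.0537), and the second with quantile or cyclic loess normalization (0.0509 each). On 430B, limma called 0 of 10 measured receptor genes, with 1 at an unadjusted p under 0.05 and a median of -0.05. That gene was Htr1b, which was lower in ILS there (-0.70, limma adjusted p = 0.232), opposite to 430A.

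G protein subunits that carry the signal to GIRK had 16 measured genes on 430A, of which 0 rose, 1 fell in ILS and 15 did not pass, with a median of -0.06. The gene that fell was the beta subunit Gnb1, at 812.5 and 736.3 in ILS mice and 5026 and 5379 in ISS mice. Its log2 fold change was -2.75 ± 0.12 (SE, limma adjusted p = 5.16e-05), and a dimmer probe set stood at -2.35 (limma adjusted p = 0.000482). Of 6 measured subunits on 430B limma called none and 1 had an unadjusted p under 0.05, the gamma subunit Gng4 (0.74, unadjusted p = 0.000659, limma adjusted p = 0.0797). Its tested probe set on 430A was dim, at 216.3 and 223.8 in ILS mice and 257.7 and 196.2 in ISS mice. That probe set stood at -0.03, with the strains overlapping (limma adjusted p = 0.945).

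Regulators and trafficking partners of GIRK had 9 measured genes on 430A, with 0 called higher in ILS and 1 called lower, and a median of 0.12. That gene was Gpsm1, which binds Gi alpha subunits, at 557.6 and 689.3 in ILS mice and 972.8 and 1192 in ISS mice (-0.80 ± 0.17, SE, limma adjusted p = 0.0458). Its other probe sets, at -0.07 and 0.03, did not pass. The call ended without ILS mouse 48 (-0.64, limma adjusted p = 0.150) or ISS mouse 56 (-0.65, 0.159), and in 5 other settings given further on. Of the 8 regulators measured on 430B, limma called none and 0 had an unadjusted p under 0.05 (median -0.04).

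Beside the glial channels, genes of glial potassium and water clearance had no called member by limma among 13 measured on 430A (5 at an unadjusted p under 0.05, median -0.09) or 6 on 430B (0, median -0.06). The smallest p belonged to Fxyd1, a regulator of the sodium pump, at 802.5 and 1174 in ILS mice and 1773 and 1688 in ISS mice (-0.83, limma adjusted p = 0.0529). Glul, the glutamine synthetase of glia, stood at 0.43 at its brightest probe set (limma adjusted p = 0.0681). A dimmer Glul probe set stood at -0.15, with the strains overlapping (limma adjusted p = 0.588). Gja1, the astrocyte gap junction protein, stood at 0.10 at its brightest probe set and at 0.86 at its dimmest tested one (limma adjusted p = 0.641 and 0.0652). The water channel Aqp4 stood at -0.09 on each chip. Scaffold proteins that bind Kcnj channels had none called by limma among 9 on 430A (2 at an unadjusted p under 0.05, median -0.18) or 7 on 430B (0, median -0.07), with Magi1 at -0.66 (limma adjusted p = 0.0950) and Dlg3 at -0.34 (0.206).

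**Figure D4:**
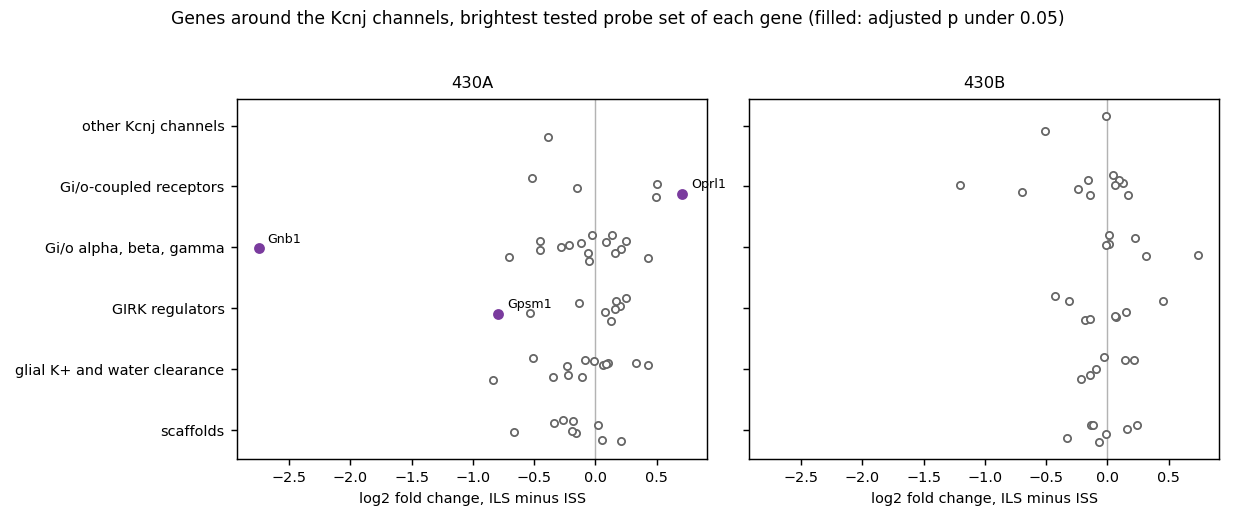
Log2 fold change (ILS minus ISS) of genes that work with the Kcnj channels, at the brightest tested probe set of each gene, by list, on 430A (left) and 430B (right). Filled points passed an adjusted p of 0.05. They are Gnb1 at -2.75, Gpsm1 at -0.80 and Oprl1 at 0.71, all on 430A.

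The tissue was checked against cell type markers. The cerebellar genes Pcp2 of Purkinje cells (5488 to 9007) and Gabra6 of granule cells (4160 to 6733) had high signals in every mouse on 430A. Of 11 measured granule cell markers on 430A limma called none (5 at an unadjusted p under 0.05, median -0.24), and their summed signal was 28712 to 32948 in ILS and 33881 to 40144 in ISS. Of 12 Purkinje cell markers, Icmt (-0.87) and Ppp1r17 (-0.90) were called lower in ILS (median -0.47), with sums of 36627 to 39101 in ILS and 41312 to 50843 in ISS. Ppp1r17 lost its call without ISS mouse 56 (limma adjusted p = 0.0552). Of 17 markers of Bergmann glia and astrocytes limma called none (6 at an unadjusted p under 0.05, median -0.11), with sums of 34389 to 37295 and 38455 to 39682. No marker signal was 0. In each of these 3 lists both ILS sums on 430A lay below both ISS sums, as did the signals at Kcnj9 1450712_at. The strains did not overlap at 54.3% of all tested probe sets on 430A, in either direction. Bright probe sets of 430A leaned slightly towards ISS. Their median log2 fold change was -0.057 with the filter at the 75th percentile, against -0.011 over all tested ones. The 430A sums were also lower in ILS for unipolar brush cells and interneurons. They were higher in both ILS mice for microglia, oligodendrocytes, and endothelium and pericytes. On 430B the sums of the granule cell, Purkinje cell and glial lists overlapped between strains. The part of these levels in the Kcnj9 difference was not tested.

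The other marker lists on 430A had 4 of 9 microglial genes called higher in ILS (median 0.49), C1qb (1.05), C1qc (1.00), Laptm5 (0.88) and Ctss (0.84). Of 14 oligodendrocyte genes Cldn11 (0.78) was called higher (median 0.06), and of 5 choroid plexus and meningeal genes Dcn (0.65, median 0.14). Each of these calls but that of C1qb ended with no filter, and each ended without at least 1 mouse, C1qb without ILS mouse 48. The Dcn call ended whichever mouse was left out, and with equal array medians, quantile or cyclic loess normalization. Those of Cldn11, C1qc, Ctss and Dcn also ended with both chips adjusted together (limma adjusted p = 0.0506 to 0.0711). Limma called none of 12 endothelial and pericyte genes (0.004), 4 of unipolar brush cells and interneurons (-0.26) and 5 of brainstem, midbrain and forebrain neurons (0.33), among which 2, 2 and 0 had an unadjusted p under 0.05. On 430B, Slc17a7 (-1.14) fell among 5 granule cell markers, Gfap (-2.37) fell among 4 of Bergmann glia and astrocytes and Car8 (1.51) rose among 3 of Purkinje cells, while no other list had a called gene. These 3 calls ended with no filter, with the station as a block (limma adjusted p = 0.0662, 0.0662 and 0.0795 with the block) and without the intensity trend (0.195, 0.0653 and 0.129). That of Slc17a7 also ended with equal array medians (0.0756) and without ILS mouse 48 (0.0608), ILS mouse 51 (0.152) or ISS mouse 56 (0.0836), and that of Car8 without ILS mouse 48 (0.0807). On 430A the probe sets of Car8 stood at 0.04 and 0.97 and were not called. Those of Gfap stood at -1.05 and -0.21 on 430A and were not called either (limma adjusted p = 0.0618 and 0.702). At the called Gfap probe set the ILS signals were 219.2 and 287.2, near the filter signal of 231 on 430B.

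Arrays of a strain correlated at r = 0.966 on 430A and 0.919 to 0.932 on 430B in log2 signal, against 0.945 to 0.959 and 0.918 to 0.924 between strains, across probe sets that are not independent replicates. On 430A the ILS arrays ran on station 2 and the ISS arrays on station 1. Strain and station therefore cannot be told apart for any probe set of 430A. This covers Kcnj9 1450712_at, Kcnj10, Kcnj6 and every other 430A call given above, Gnb1, Oprl1 and Gpsm1 included. Scan order also separated the strains on each chip. The 18S ribosomal RNA control (3' end) exceeded ISS in ILS by 4.63-fold on 430A and 3.80-fold on 430B, and its part in the Kcnj values was not tested.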

How the data were processed

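The deposited values are array signal intensities on a linear scale. The submitters' processing notes name MAS5, with a version not given in the sources used here. Every deposited array had a 2% trimmed mean of 500.1. The experiment files, of unit other, name the chip type and fluidics station of each array per the file headers, and the chip type was checked against the tables.

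Signals were set to a 2% trimmed mean of 500 per array, 64 control probe sets were dropped and log2 was taken. Probe sets with a mean log2 at or above the chip median were tested (430A 11313, 430B 11256). The strains were compared chip by chip over all tested probe sets by limma 3.58.1 in R 4.3.3 (lmFit, eBayes with an intensity trend), two-sided, and p-values were adjusted per chip after Benjamini and Hochberg, with calls at 0.05. Replicates are separate mice, with 2 residual and 6.22 (430A) or 7.31 (430B) prior degrees of freedom. Strain effects at different probe sets of a gene were compared by exact permutation over mice. The steps were tested on simulated data.

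Probe sets were named from the platform annotation, and the 5 symbols matched the RefSeq gene table of GRCm38.p6. The members and gene lists were chosen with earlier results of these data known. Genes named are the members, their 3 nearest patterns, the tested genes next to Kcnj9 and Kcnj10, the called genes of each pathway list (up to 4, at any tested probe set) or, where none was called, the 2 of lowest p, and the called genes of each marker list. Kcnj13, Htr1a, Htr1b, Cnr1, Gabbr1, Gng4, Glul, Aqp4, Pcp2 and Gabra6 were added after their values were seen. Alternatives covered scaling, low values, the filter, the variance model, joint adjustment, each mouse left out and the station on 430B.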

Additional observations from a re-analysis of the deposited data

How the results depend on the processing

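The count of called Kcnj probe sets on 430A (1) fell to 0 with no filter, with the filter at the 75th percentile, which Kcnj9 1450712_at did not reach, and when ILS mouse 48, ILS mouse 51 or ISS mouse 56 was left out (range 0 to 1 with a mouse left out). On 430B it was 0, and 1 without ISS replicate 56 (range 0 to 1), the Kcnj9 probe set at 3.65. All called probe sets on 430A numbered 332, against 1174 with equal array medians (19.1% higher in ILS, against 54.8%), 136 with no filter, 163 at the 75th percentile, 208 with both chips adjusted together and 115 to 626 with a mouse left out. On 430B they numbered 54, against 13 with no filter, 4 without the intensity trend, 94 with both chips adjusted together, 24 with the station as a block and 25 to 67 with a mouse left out. A mouse left out leaves a lone array in its strain, assumed to vary like the others, and the block for station on 430B absorbs ILS mouse 48 whole.

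Equal medians moved the median of all tested probe sets on 430A to -0.17, and Kcnj9 1450712_at stood at -1.03 there. It lost its call with no filter (-0.87) and with any mouse but ISS mouse 55 left out (-0.98 to -0.76). Small values changed sign without a call. Kcnj10 stood at 0.044 with quantile normalization, 0.037 with cyclic loess and 0.122 without ISS replicate 55. Kcnj3 1421468_at stood at 0.012 without ILS replicate 48 and 0.027 without ISS replicate 55 (range -0.058 to 0.027 with a mouse left out). Kcnj3 1444025_at stood at 0.021 (quantile), 0.013 (cyclic loess), 0.135 (without ILS replicate 48, and with the station as a block) and 0.104 (without ISS replicate 56), with a range of -0.146 to 0.135 with a mouse left out. In these changes the cause was not tested. The Gpsm1 call also ended with both chips adjusted together, cyclic loess, no trend, no filter and quantile normalization (limma adjusted p = 0.0525 to 0.0785). No paired analysis was possible because the strains share no replicate numbers.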
